A study of Mus musculus with 416 samples.

Results

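The regions described are 50-kb bins of the mouse genome that were replicated in relatively more cells at both the 8-cell and the morula stage after embryos had received an siRNA against Rif1. In every group, the share of a bin's measured cells that had replicated it (the replicated share, in percent) was expressed as its distance from that group's mean over all used bins. The shift of a bin is this centred value after siRif1 less the value in control (siCont) embryos, in percentage points, and a positive shift means relatively earlier replication. Bins with a shift of 13 points or more at both stages were taken, and they are called the advanced bins. There were 2839 of them among 46015 used bins (6.17%), or 141.95 Mb of autosomal DNA. The 8-cell and morula shifts chose these bins, so their size at those stages is a description and supports nothing. The 4-cell cells, the genes and the positions of the bins were not used in the choice.

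Replication timing is the order in which parts of the genome are copied during S phase. Gene-rich, open chromatin is generally copied early, and gene-poor chromatin, much of it at the nuclear lamina, is copied late. RIF1 is a chromatin protein that brings protein phosphatase 1 to DNA, where it counteracts the DDK kinase that fires replication origins, and it is known for holding back late regions in many cell types. In mouse embryos the difference between early and late regions is known to become clearer over the first cleavage divisions.

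The groups were 6, each made of single blastomeres from embryos of the genotype (C57BL/6J xCBA) x DBA/2J. Zygotes had been injected with 20 µM of siControl or of siRif1 between 17 and 18 hours after hCG and grown in culture until embryos had 4 cells, 8 cells or were morulae. In that order the siCont groups comprised 49, 60 and 44 cells and the siRif1 groups 51, 50 and 45. Between 88.1 and 94.1% of bins had a state in any one cell. The labels name no embryo for a cell, so blastomeres may share an embryo, each group counts as 1 sample, and no p-value or standard error is given. The tables hold DNA states and no RNA or protein, so the depth of the Rif1 knockdown cannot be read from them, nor can the cell type be checked against marker genes.

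Most advanced bins held no gene, and the promoters that lay in them differed widely in CpG content. The following windows run from 250 bases before to 50 bases after a start site of the gene. A gene can have several such sites, and the site shown need not be the outermost. The windows are written 5′ to 3′ on the gene's strand as RefSeq gives them for GRCm38.p6, with CpG dinucleotides in capitals. They are shown because they lie in advanced bins of domains named further on, and because their CpG counts run from 30 to 8. They leave out a richer window of these domains, that of Sorcs1 with 50 CpGs, and the poorest promoters. The 161 windows in advanced bins had a median of 7 CpGs, and 35.4% held 3 or fewer.
Epha5: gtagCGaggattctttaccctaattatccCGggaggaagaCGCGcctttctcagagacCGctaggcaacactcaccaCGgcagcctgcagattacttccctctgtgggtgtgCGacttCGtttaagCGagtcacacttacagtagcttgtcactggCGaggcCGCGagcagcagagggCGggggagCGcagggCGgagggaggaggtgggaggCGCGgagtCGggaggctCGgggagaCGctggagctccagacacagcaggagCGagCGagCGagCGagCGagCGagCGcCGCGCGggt
Elavl2: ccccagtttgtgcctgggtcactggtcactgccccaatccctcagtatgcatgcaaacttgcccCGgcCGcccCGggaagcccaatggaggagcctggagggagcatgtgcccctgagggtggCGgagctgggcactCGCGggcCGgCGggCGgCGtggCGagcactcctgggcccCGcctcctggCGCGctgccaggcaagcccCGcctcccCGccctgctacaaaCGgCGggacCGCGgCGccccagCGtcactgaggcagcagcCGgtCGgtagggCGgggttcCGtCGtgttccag
Gabrb2: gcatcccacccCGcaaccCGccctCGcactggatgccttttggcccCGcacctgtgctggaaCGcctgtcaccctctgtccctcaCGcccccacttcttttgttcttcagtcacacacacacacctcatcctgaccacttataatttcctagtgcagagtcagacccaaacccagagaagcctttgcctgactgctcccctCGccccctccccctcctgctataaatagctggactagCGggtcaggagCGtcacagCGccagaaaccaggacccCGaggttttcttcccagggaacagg
Cdh9: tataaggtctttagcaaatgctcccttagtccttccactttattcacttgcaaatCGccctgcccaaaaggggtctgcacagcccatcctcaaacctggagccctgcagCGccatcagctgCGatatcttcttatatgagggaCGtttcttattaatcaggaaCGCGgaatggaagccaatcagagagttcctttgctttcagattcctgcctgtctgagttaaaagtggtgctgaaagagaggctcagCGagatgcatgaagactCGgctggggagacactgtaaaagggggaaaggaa

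The Epha5 window, of an ephrin receptor gene in axon guidance, lies at chr5:84417333-84417632 on the minus strand and held 30 CpGs at 64.3% GC. The Elavl2 window, of a neuronal RNA-binding protein gene, lies at chr4:91371991-91372290 on the minus strand and held 27 CpGs at 72.3% GC. It belongs to a start site inside the gene, which spans chr4:91211533-91400108. The Gabrb2 window, of a GABA receptor subunit gene, lies at chr11:42420190-42420489 on the plus strand and held 11 CpGs at 59% GC. The Cdh9 window, of a cadherin gene, lies at chr15:16728665-16728964 on the plus strand and held 8 CpGs at 48.7% GC. The bins of these windows were all late in control morulae: that of Epha5 had been copied in 4 of 44 morula cells with siCont and in 14 of 45 with siRif1, that of Cdh9 likewise in 4 of 44 and 14 of 45, that of Elavl2 in 9 of 44 and 20 of 45, and that of Gabrb2 in 5 of 44 and 18 of 45.

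In control embryos the advanced bins were late at the 8-cell and morula stages and less so at the 4-cell stage. The rule subtracts the control values of the 8-cell and morula stages, so low control values there are partly built in. The replicated share of the advanced bins averaged 37.2% of siCont cells at the 4-cell, 23.9% at the 8-cell and 14.3% at the morula stage. In siRif1 cells it averaged 41.7, 36.1 and 34.7%. Over all used bins the mean share was 46.5, 49.2 and 49.4% in siCont and 50.5, 43.02 and 49.98% in siRif1 cells. Part of the 8-cell shift thus comes from centring on a lower siRif1 mean, and not from a higher share of the advanced bins. After centring, the siCont means were -9.30 points (SD over 19 autosomes 4.12), -25.3 points (SD 2.88) and -35.1 points (SD 3.49). The siRif1 means were -8.72 points (SD 4.52), -6.94 points (SD 3.20) and -15.3 points (SD 4.18). The 4-cell values of both treatments thus lay within 1 SD of each other. At the later stages the autosomes of the 2 treatments formed separate sets of values, which is what the choice of bins selects for.

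**Figure D1:**
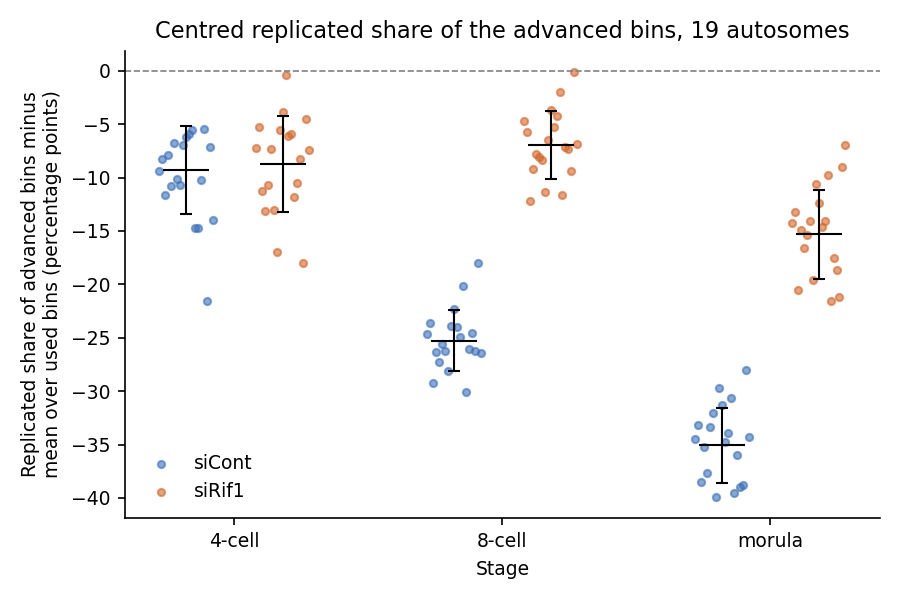
Mean centred replicated share of the advanced bins (percentage points from the mean over used bins) on each of 19 autosomes (points) for siCont (blue) and siRif1 (orange) cells at 3 stages; black bars give the mean over all advanced bins and the SD over autosomes. The siCont means fall from -9.30 to -35.1 points between the 4-cell and morula stages, and those of siRif1 go from -8.72 to -15.3 points; the bins were chosen on the 8-cell and morula differences.

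Within the order of all used bins, the advanced bins had a mean percentile of 28.7 in siCont and 30.5 in siRif1 cells at the 4-cell stage, 0 being the latest. They stood at 14.3 and 34.9 at the 8-cell stage and at 12.7 and 23.6 at the morula stage. The bins were therefore still in the late part of the order in siRif1 cells at every stage. Their shift was 18.3 points on average at the 8-cell stage (SD over bins 4.18, highest 40.5) and 19.7 points at the morula stage (SD 4.72, highest 41.5). Shifts of at least 13 points were found in 15% of used bins at the 8-cell and in 17.8% at the morula stage. The advanced bins were 41.1% of the former and 34.6% of the latter. Counting error on the shift of a single bin had a median SD of 8.64 points at the 8-cell and 8.58 points at the morula stage, so bins near the threshold on either side differ by less than their error. Just inside it lay 3 bins of chromosome 6 between positions 143750001 and 143950000 with a smaller shift of 13.005 points, and just outside it lay bins on chromosomes 11, 7 and 19 with smaller shifts of 12.916, 12.927 and 12.950 points.

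Single cells showed the difference in how far the advanced bins lagged behind the rest of the genome. At the 8-cell and morula stages this is a description, since differences between these cells chose the bins. In siCont morula cells the percent of advanced bins replicated ran from 0 over a median of 8.63 to 68.9%, whereas other used bins ran from 26.8 over 50.7 to 83.4%. In siRif1 morula cells the advanced bins ran from 0.458 over 28.8 to 92.7%, beside other bins at 25.8, 48.2 and 90.7%. At the 8-cell stage the advanced bins ran from 0 over 17.8 to 95.4% in siCont and from 0 over 36.8 to 74.3% in siRif1 cells. In 4-cell embryos they ran from 0 over 34.6 to 99.1% in siCont and from 0 over 41.4 to 96.2% in siRif1 cells. The cells of the 2 treatments overlapped at every stage.

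No siCont morula cell had a higher percent replicated in the advanced than in the other bins, and 6 of 45 siRif1 morula cells did. This was so in 5 of 60 siCont and 19 of 50 siRif1 cells of the 8-cell stage, and in 13 of 49 and 16 of 51 cells of the 4-cell stage. Cells with under 5% of the advanced bins replicated were 12 of 44 siCont and 5 of 45 siRif1 morula cells. The rule favours such differences at the 8-cell and morula stages, so the counts of these stages support nothing.

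**Figure D2:**
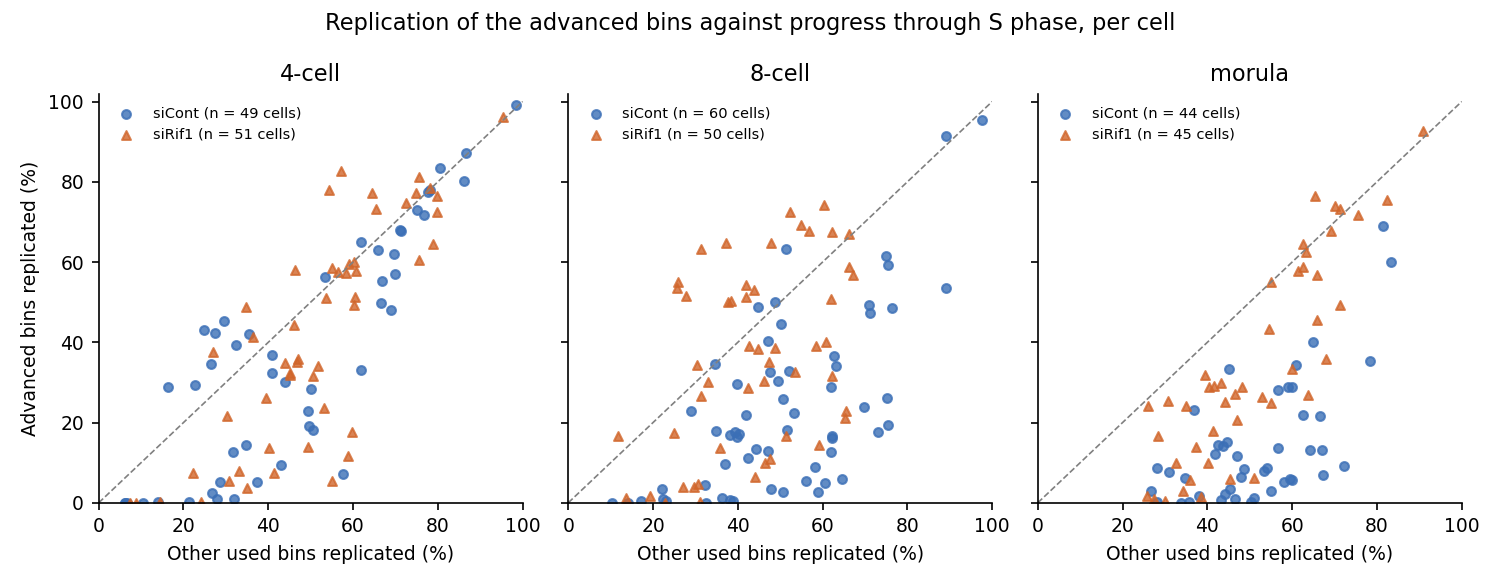
Percent of the advanced bins replicated (y) against percent of the other used bins replicated (x) in each single cell, for siCont (blue circles) and siRif1 (orange triangles) at 3 stages; the dashed line marks equal percent. At the morula stage no siCont cell lies above the line and 6 siRif1 cells do, whereas at the 4-cell stage 13 siCont and 16 siRif1 cells do.

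The percent of advanced bins replicated was also set out by position in S phase, as a description, since differences between these cells at the 8-cell and morula stages chose the bins. Among morula cells with 40 to 60% of the other bins replicated, the median percent of advanced bins replicated was 8.15% in 24 siCont cells and 26.8% in 16 siRif1 cells. Between 60 and 80% it was 21.7% in 9 siCont and 60.7% in 14 siRif1 cells, and between 20 and 40% it was 2.99% in 9 and 10.004% in 13 cells. At the 8-cell stage the medians in these classes from least to most advanced S phase were 7.13, 21.9 and 26.1% in siCont (16, 21 and 17 cells) and 30.01, 38.4 and 53.8% in siRif1 (17, 20 and 10 cells). No siRif1 cell of the 8-cell stage had more than 67.2% of the other bins replicated, while siCont cells reached 97.5%. At the 4-cell stage the medians were 14.5, 25.6 and 64.1% in siCont (15, 10 and 14 cells) and 14.9, 34.8 and 72.8% in siRif1 (10, 23 and 14 cells).

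With siCont and siRif1 cells of each stage paired within 5 points of percent replicated, the same 2839 bins had mean shifts of 17.1 points at the 8-cell stage (43 pairs) and 18.8 points at the morula stage (35 pairs). Of the 2839 bins, 1875 (66.04%) still met the rule with these cells. On percentile ranks in place of shares only 774 (27.3%) met it, with mean shifts of 20.5 rank points at the 8-cell and 10.9 at the morula stage. Which bins met the rule thus depended on the scale more than on the choice of cells.

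The advanced bins lay together in 411 domains, joined across gaps of up to 2 bins (100 kb). The median domain held 4 advanced bins, and 94 domains held a single one. The 105 domains with 10 or more advanced bins held 1796 of them (63.3%). Mean shifts of these long domains ran from 14.9 to 29.8 points at the 8-cell stage and from 15.3 to 29.3 points at the morula stage, and 66 of the 105 had the larger shift at the morula stage. Neighbouring bins of a cell were mostly in the same state, so the bins of a domain are not separate measurements.

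Shifts fell off gradually at the edges of the long domains. From 225 kb inside to 25 kb inside the edge the mean shift went from 19.04 to 17.2 points at the 8-cell stage and from 20.2 to 18.3 points at the morula stage. It was 14.6 and 16.2 points in the first bin outside, 11.2 and 12.4 points at 225 kb outside and 9.21 and 9.83 points at 475 kb outside. The rule sets the edges on these same shifts, so a fall across them is built in, and other bins of like control timing had means of 8.81 and 11.9 points. The profile of the 4-cell stage had no step, with means of 0.870 points at 225 kb inside and 0.735 points at 225 kb outside.

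**Figure D3:**
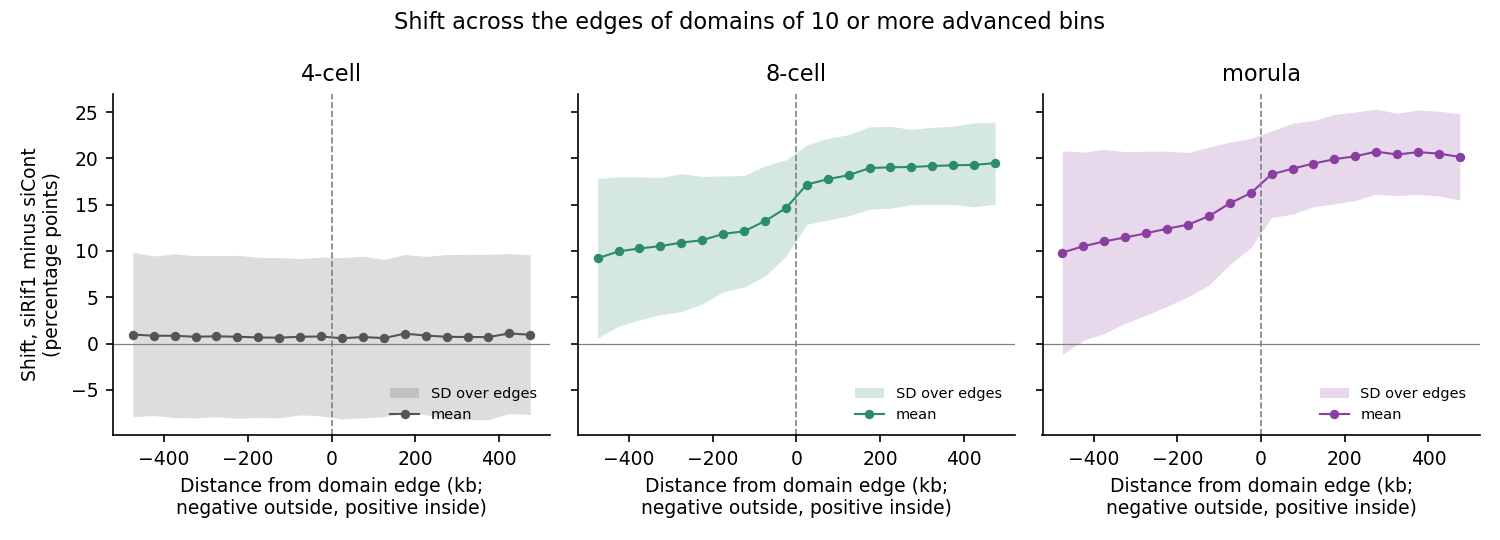
Mean shift (siRif1 minus siCont, percentage points) against distance from the domain edge (kb) for the 105 domains with 10 or more advanced bins, with both edges of each; shading is the SD over edges. At the 8-cell and morula stages the mean rises from 9.21 and 9.83 points at 475 kb outside to 19.04 and 20.2 points at 225 kb inside, and at the 4-cell stage it lies between 0.572 and 1.10 points throughout.

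The domain with the most advanced bins spans chr5:82150001-84550000 (47 of them) and overlaps Epha5 and Tecrl, an enoyl-CoA reductase-like gene. It was replicated over most of its advanced bins in 1 of 44 siCont (2.27%, exact 95% interval 0.0575 to 12.02%) and 15 of 45 siRif1 morula cells (33.3%, interval 20.00 to 48.95%). At the 8-cell stage this was so in 9 of 60 and 17 of 50 cells, and at the 4-cell stage in 13 of 49 (26.5%, interval 14.9 to 41.1%) and 22 of 51 cells (43.1%, interval 29.3 to 57.8%). Intervals are exact (Clopper-Pearson) and describe counting error alone.

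The next lies at chr19:50500001-52700000 (44 advanced bins), with part of Sorcs1, a sorting receptor gene, and Ins1, a preproinsulin gene. It was mostly replicated in 4 of 44 siCont and 16 of 45 siRif1 morula cells, with mean shifts of 29.3 points at the morula, 18.9 at the 8-cell and 9.47 at the 4-cell stage. The third, at chr16:52350001-54550000, overlaps the start of Alcam, a cell adhesion gene, and went from 3 of 42 to 15 of 45 morula cells. At the 8-cell stage 13 of 60 siCont and 14 of 50 siRif1 cells had replicated most of it. Its shift at the 4-cell stage was -1.99 points. A domain at chr6:74300001-76400000 overlapped no protein-coding gene and had shifts of 17.7 points at the morula, 15.9 at the 8-cell and -6.62 at the 4-cell stage. Another domain without such a gene, of 36 advanced bins on chromosome 18, had shifts of 20.96, 17.9 and 1.13 points in the same order.

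On chromosome 4, the domain at chr4:77350001-79000000 overlaps part of Ptprd, a receptor phosphatase gene of synapse formation, of which 19 of 47 bins were advanced. At the 8-cell stage 7 of 60 cells with siCont and 15 of 50 with siRif1 had replicated most of it, as had 3 of 44 and 14 of 45 morula cells. The domain at chr4:90650001-92350000, with Elavl2 and the sperm gene Izumo3, went from 5 of 44 to 16 of 45 morula cells. Both had negative shifts at the 4-cell stage (-5.30 and -8.35 points). The domain at chr2:40600001-42100000 lies inside Lrp1b, a lipoprotein receptor-related gene known as a common fragile site, and had the highest 8-cell shift of the 10 domains with the most advanced bins (23.7 points), beside -1.76 points at the 4-cell stage.

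The domain at chr15:16600001-18650000 (32 advanced bins) holds Cdh9 and went from 3 of 44 siCont to 9 of 45 siRif1 morula cells. The domain at chr11:41450001-43050000 (30 advanced bins) overlaps 5 protein-coding genes, of which Atp10b is the longest. It went from 5 of 44 to 18 of 45 morula cells, from 11 of 60 to 17 of 49 cells at the 8-cell stage and from 19 of 49 to 28 of 50 cells at the 4-cell stage. Among these 10 domains the 4-cell shift was positive in 5 and negative in 5.

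**Figure D4:**
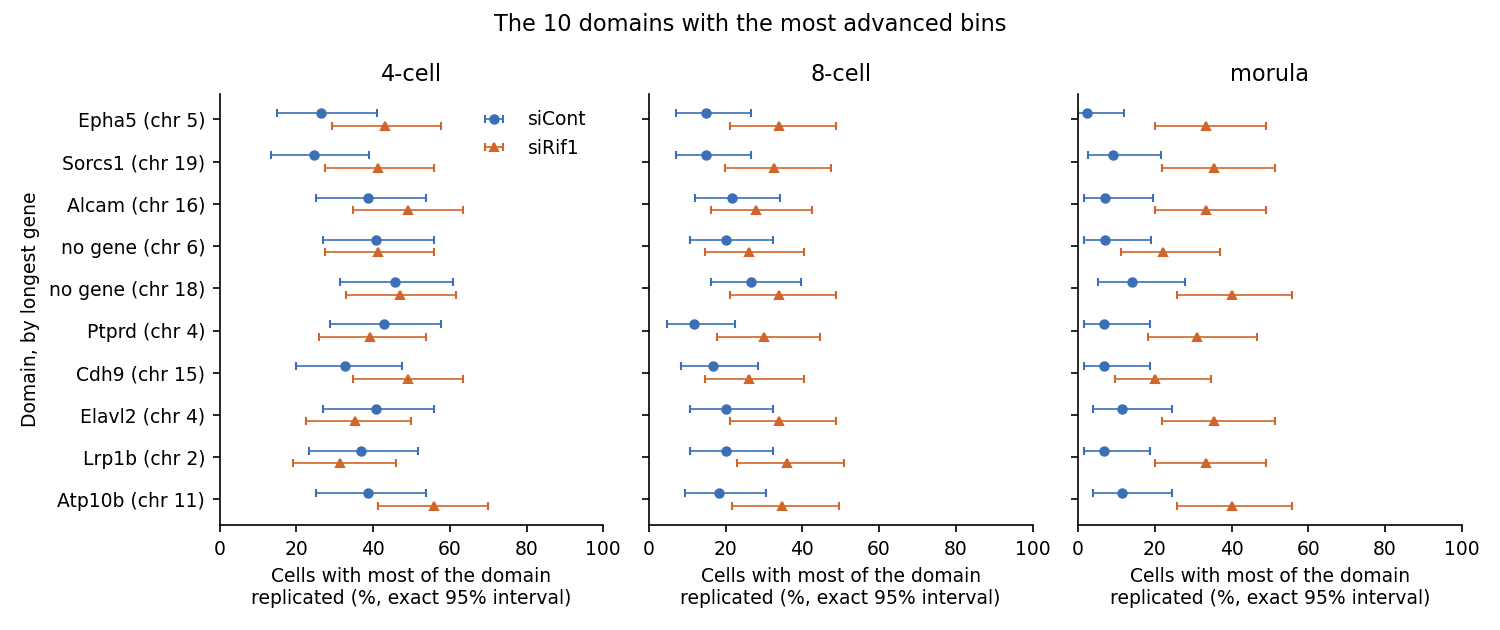
Percent of cells with most of the domain's advanced bins replicated, with exact 95% intervals for counting error, in siCont (blue circles) and siRif1 (orange triangles) cells for the 10 domains with the most advanced bins, each named by its longest protein-coding gene. At the morula stage siCont values lie between 2.27 and 13.95% and siRif1 values between 20 and 40%; the intervals of the 2 treatments overlap in all 10 domains at the 4-cell and 8-cell stages and in 5 of 10 at the morula stage, and the 8-cell and morula shifts chose the bins.

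The single bins with the largest smaller shift of both stages, 1 per domain, were led by chr1:50700001-50750000, which overlaps no protein-coding gene. At the 8-cell stage 13 of 60 siCont and 23 of 50 siRif1 cells had replicated it (shift 30.5 points) as had 3 of 44 and 18 of 45 morula cells (shift 32.6 points). The next, chr1:25450001-25500000, lies in Adgrb3, an adhesion receptor gene of neurons, with shifts of 34.2 and 30.1 points. A gene-free bin at chr13:7250001-7300000 (29.2 and 30.02 points), chr12:38500001-38550000 in the diacylglycerol kinase gene Dgkb (29.2 and 28.1 points) and chr19:52050001-52100000 (27.4 and 34.8 points) followed. Their 4-cell shifts were 7.97, 4.21, 14.7, -3.96 and 12.7 points.

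Of the advanced bins, 35 (1.23%) in 6 domains were replicated in none of 44 siCont morula cells, a count that allows a share of up to 6.82%. Among all used bins 117 (0.254%) had no replicated siCont morula cell. The 35 bins were replicated in 15.6 to 31.1% of siRif1 morula cells, with a median of 20%. The rule favours low siCont and high siRif1 morula shares, so the excess of such bins and their siRif1 shares are partly built in.

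At the 4-cell stage, which played no part in the choice, the advanced bins did not stand apart from all used bins on average. Their mean shift was 0.576 points (SD over autosomes 3.81), against 0 over all used bins by construction. A shift above 0 was found in 52.8% of the advanced bins and in 49.8% of used bins. A shift of 13 points or more was found in 216 of the advanced bins (7.61%), against 7.8% of used bins, and one of -13 points or less in 5.32%, against 7.31%. Of the 411 domains 214 (52.1%) had a positive 4-cell mean. With shares centred on the median instead of the mean, the 4-cell mean of the same bins was -1.59 points and with paired cells it was 2.60 points, so its sign depends on these choices and its size stays under the SD over autosomes. Used bins outside the set, weighted to the same control timing at the 8-cell and morula stages, had a 4-cell mean of -0.709 points. With this weighting 45.8% of them were above 0 and 4.73% were at 13 points or more.

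The 4-cell shifts of the advanced bins varied along with their chromosome. Means per autosome ran from -6.23 points on chromosome 8 and -5.23 on chromosome 4 to 6.57 on chromosome 19 and 8.81 on chromosome 13, and were above 0 on 12 of 19 autosomes. Over all used bins of these chromosomes the 4-cell means were -2.91, -3.87, 1.01 and 6.75 points. Across the 19 autosomes the 2 means correlated at r = 0.700 (Spearman's rho = 0.633), a description of points that share the same cells and bins. The advanced bins lay above their own chromosome's mean on 10 of 19 autosomes. Long domains ranged from -17.04 to 17.4 points at the 4-cell stage around a median of 0.534; 7 of the 105 were at 13 points or more and 2 at -13 points or less. The lowest was chr7:10200001-10750000 and the highest chr3:125000001-126000000.

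In 4-cell controls the advanced bins leaned late on average. The bins that meet the rule on percentile ranks, of which 34.7% are among these, had a 4-cell control mean of 0.845 rank points above the middle of the order instead. The latest of 5 classes of bins ranked by siCont 4-cell share held 1191 of them (41.95%), the next 1092 (38.5%), the middle class 408 (14.4%) and the earlier classes 131 and 17. Used bins of like control timing at the later stages had a centred 4-cell share of -13.5 points with siCont and of -14.2 points with siRif1. The advanced bins were less late than these in both treatments, at -9.30 and -8.72 points. The control values used for this matching also entered the rule.

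Bins advanced at only 1 of the stages were similar in 4-cell shift. The 4071 bins with 13 points or more at the 8-cell stage only had a 4-cell mean of 1.51 points (SD over autosomes 3.25), and the 5356 at the morula stage only had -0.198 points (SD 2.99). In siCont morulae the bins advanced at both stages were later (-35.1 points) than those advanced at the 8-cell only (-17.7) or the morula only (-29.6). Of bins in the latest of 20 classes by control share at the later stages, 28.6% were advanced at both, and no bin of the earliest 8 classes was. The siCont morula values and these classes use control shares that the rule subtracts, so a late bin meets it more easily. Bins of like control timing outside the set also had positive mean shifts, 8.81 points at the 8-cell and 11.9 points at the morula stage.

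The advanced bins were spread over all 19 autosomes, unevenly. They made up 10.3% of the used bins of chromosome 16, 9.73% of chromosome 5 and 9.26% of chromosome 4. They made up 2.29% of chromosome 17, 2.63% of chromosome 9 and 2.82% of chromosome 7. The share fell with the gene density of the chromosome (r = -0.618, rho = -0.646 across 19 autosomes, a description). Along a chromosome, in 5 equal parts counted from the centromere end, the advanced bins made up 6.51, 7.01, 7.48, 6.28 and 3.58% of used bins.

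**Figure D5:**
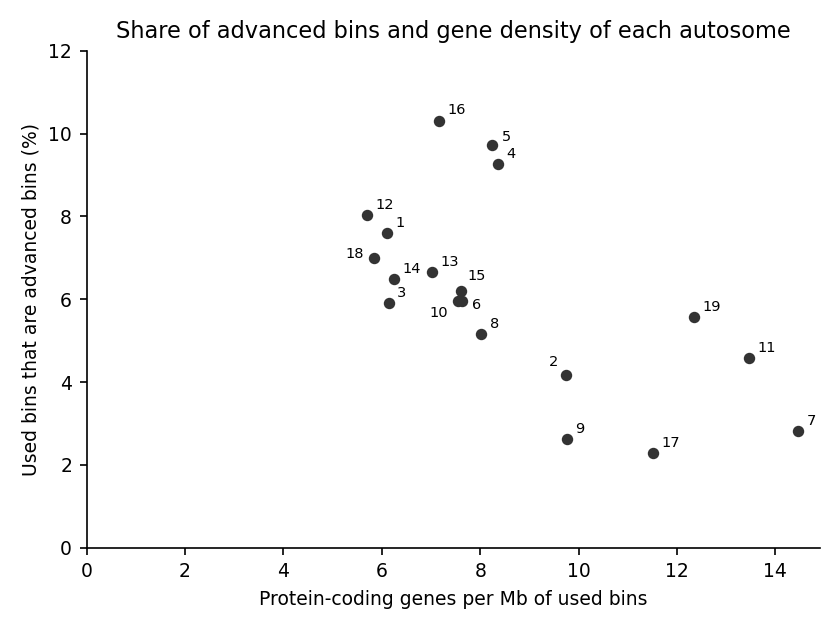
Percent of used bins that are advanced bins (y) against protein-coding genes per Mb of used bins (x) for each autosome, labelled by its number. The shares run from 2.29% on chromosome 17 to 10.3% on chromosome 16, and the gene-dense chromosomes 7, 11, 17 and 19 all lie below the 6.17% of the whole genome.

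Genes were rare in the advanced bins. They held the midpoints of 173 protein-coding genes, 1.22 per Mb (SD over autosomes 1.00), against 8.44 per Mb over all used bins. The bins that meet the rule on percentile ranks held 4.23 per Mb. No protein-coding gene body touched 71.4% of the advanced bins, against 41.8% of used bins. Bins advanced at the 8-cell only and at the morula only held 3.66 and 2.64 genes per Mb, and bins delayed by 13 points or more at both stages held 21.4 per Mb. Low gene density goes with late timing, and bins of like control timing held 3.51 genes per Mb, with 71.3% of them free of gene bodies. Without olfactory and vomeronasal receptor genes, which crowd into late clusters, the densities were 1.11 per Mb in the advanced bins and 1.77 per Mb in bins of like timing. Within each class of 4-cell control timing the advanced bins held fewer genes than the others, 1.06 against 6.72 per Mb in the latest class. These classes keep the receptor genes and are not matched for timing at the later stages, where the advanced bins were late.

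The genes that did lie there were long. Their median length was 43.6 kb, against 18.3 kb for genes in used bins, and 50 of 173 (28.9%) were at least 200 kb long, against 4.80%. The longest were Cntnap2, a neurexin-family gene of 2241 kb, and Lrp1b, of 2058 kb.

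Gene lists showed which kinds of gene these were, with 6.17% of bins and 0.891% of genes (by midpoint) as the background. Of 54 cadherin superfamily genes outside the protocadherin clusters, 12 (22.2%) lay in advanced bins, and of 45 glutamate and GABA receptor genes 10 (22.2%). Synaptic adhesion genes did so in 8 of 80 cases (10%), axon guidance genes in 4 of 69 (5.80%) and common fragile site genes in 3 of 29 (10.3%). Some genes are on more than 1 list, such as Cntnap2, which is also a synaptic adhesion gene. Vomeronasal receptors did so in 12 of 185 cases (6.49%), olfactory receptors in 4 of 1019 (0.393%), Zfp zinc finger genes in 3 of 350 (0.857%) and potassium channel genes in 1 of 92 (1.09%), Kcnip4. Most genes of these lists lay elsewhere: the median shift over the whole axon guidance list was -4.67 points at the 8-cell and -6.55 points at the morula stage, and over the potassium channel list -9.99 and -8.77 points. For the cadherin list the medians were 3.01 and 2.999 points and for the glutamate and GABA receptor list 3.18 and 2.95 points. None of 83 ribosomal protein, 53 replication factor, 27 pluripotency, 82 histone and 57 clustered protocadherin genes lay in an advanced bin.

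GABA-A receptor subunit genes, which encode the channels of fast inhibitory transmission, were advanced in 2 clusters, on chromosomes 5 and 11. Of 16 measured subunit genes, 8 lay in advanced bins and 3 had negative shifts at both the 8-cell and the morula stage. In the chromosome 11 cluster the bin of Gabrb2 went from 5 of 44 siCont to 19 of 45 siRif1 morula cells (shift 30.3 points), from 12 of 60 to 19 of 49 cells at the 8-cell stage (24.96 points) and from 19 of 49 to 29 of 50 cells at the 4-cell stage (15.3 points). Gabra6 beside it went from 5 of 44 to 19 of 45 morula cells, with shifts of 21.997 points at the 8-cell and 9.19 points at the 4-cell stage. The rule fixes the positive sign at the 8-cell and morula stages, so only the 4-cell sign was free. Both genes lie in the same domain, and the 4-cell shift of Gabra6 was below the median counting SD of 9.70 points.

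In the chromosome 5 cluster Gabrg1 went from 1 of 44 siCont to 13 of 45 siRif1 morula cells (26.03 points), Gabra2 from 2 of 44 to 12 of 45 (21.5 points), Gabra4 from 6 of 44 to 19 of 45 (27.999 points) and Gabrb1 from 13 of 44 to 22 of 45 (18.8 points). The ends of this cluster differed in sign at the 4-cell stage, with 8.77 points at Gabrg1 and 10.7 at Gabra2 but -9.52 at Gabra4 and -11.8 at Gabrb1. On chromosome 7, Gabrg3 and Gabra5 each missed the threshold at 1 stage: Gabrg3 had 0.282 and 16.4 points and Gabra5 14.3 and 7.24 points at the 8-cell and morula stages. The glutamate receptor gene Grm7 (17.8 and 23.2 points) also lay in an advanced bin.

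Among the Cdh genes, which encode classical cadherins and their relatives in cell-cell adhesion, 6 of 23 lay in advanced bins and 10 of 23 had negative shifts at both stages. On chromosome 15, Cdh9, Cdh10 and Cdh18 were advanced, with 8-cell shifts of 21.5, 18.5 and 16.2 points and morula shifts of 21.4, 14.6 and 21.4 points. Cdh12, between Cdh10 and Cdh18, was just outside at the morula stage (15.8 and 12.3 points), and Cdh6 on the same chromosome was not shifted by as much (-0.486 and 2.65 points). Cdh1, the E-cadherin gene needed for compaction of the morula, lay outside, with shifts of -13.5 points at the 8-cell and -9.27 points at the morula stage. At the 4-cell stage Cdh9 and Cdh18 had opposite signs, 16.5 and -13.4 points.

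Pcdh9, a protocadherin gene, had 18.2 and 21.4 points and Cdh8 13.5 and 23.7 points at the 8-cell and morula stages.

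Other neuronal genes in advanced bins included Rims1, a presynaptic scaffold gene, with shifts of 37.5 points at the 8-cell and 16.8 points at the morula stage and counts of 16 of 60 siCont and 29 of 50 siRif1 cells at the former. Cadm2, a cell adhesion gene, was the reverse in size, with 16.2 and 30.4 points, and its bin went from 1 of 42 siCont to 15 of 45 siRif1 morula cells. The protocadherin gene Pcdh20 went from 4 of 60 to 14 of 50 cells at the 8-cell stage (27.5 points) and the synaptic gene Slitrk1 from 11 of 60 to 18 of 50 (23.8 points). The ephrin receptor gene Epha3 had 15.8 and 25.6 points, and -11.9 points at the 4-cell stage. Sema3a, a secreted axon guidance gene, had 17.8 and 14.7 points. The synaptic gene Lrrtm4 had 15.8 and 16.7 points, the potassium channel partner gene Kcnip4 19.2 and 14.4 points, and Zfp804b 19.8 and 16.9 points. Of the axon guidance receptor gene Dcc the shifts were 14.8 and 16.3 points.

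A cluster of type 1 vomeronasal receptor genes, pheromone receptors, lies near the start of chromosome 7. Its 9 genes in advanced bins, Vmn1r66 to Vmn1r74, had shifts of 16.8 to 34.1 points at the 8-cell and 13.7 to 25.3 points at the morula stage, and of -21.04 to -9.04 points at the 4-cell stage. The rule fixes the positive sign at the 8-cell and morula stages, so only the 4-cell sign, negative in all 9, was free. At the 4-cell stage 18 of 49 siCont but 10 of 51 siRif1 cells had replicated the bin of Vmn1r67, and the order was turned at the 8-cell stage (13 of 59 and 17 of 50) and the morula stage (6 of 44 and 17 of 43). The genes share bins and domains, so they count as few measurements, and the counting error of a 4-cell shift had a median SD of 9.70 points.

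Promoters in the advanced bins were poorer in CpG than those of the genome but richer than those of like timing. The 161 promoter windows of 133 protein-coding genes that start in advanced bins had a median of 7 CpGs and 50% GC, against 15 CpGs and 57.7% GC over 18951 windows in used bins. At least 15 CpGs, as in the windows of Epha5 and Elavl2, were found in 50 of 161 (31.1%), against 50.5%, and 3 or fewer in 57 (35.4%), against 20.3%. The letters TATAAA, searched on both strands, were found in 31 (19.3%), against 11.9%, and the Gabrb2 window holds them. Windows in other bins of like control timing had a mean of 5.63 CpGs, against 11.2 in the advanced bins, and held TATAAA in 30.9% of cases. Without olfactory and vomeronasal receptor genes, left out after the values were seen, the means were 8.06 CpGs in bins of like timing and 12.2 in the advanced bins, and TATAAA was in 23.5 and 15.1% of windows. These are counts of letters in a 300-base window and say nothing about the use of the promoters.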

How the data were processed

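The authors deposited 6 tables, 1 per group, that score single blastomeres as 0, 1 or missing over 50-kb bins. GRCm38 is the build that the submitters' processing notes give, and Picard, SAMtools, R 4.2.3, bedtools and Bowtie2 2.5.1 are named there without roles. How states were called and cells kept, and the read depth, are not given in the sources used here. Columns were matched to samples by title, 299 of 416 labelled cells. A value of 1 was read as replicated, since bins holding gene midpoints had the higher mean share of 1 in all 6 groups.

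Bins of chromosomes 1 to 19 with at least 10 measured cells in every group were used (46015 of 49264). Shares, centring, shifts and the rule are given above. Bins of like control timing came from 20 equal classes of the mean siCont centred share at the 8-cell and morula stages, with other bins weighted as the advanced ones. Genes and promoters came from RefSeq tables of GRCm38.p6, the build of the files, and a gene was placed by its midpoint (19410 of 20665 autosomal protein-coding genes in used bins). Domains joined advanced bins across up to 2 others.

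Each group counts as 1 sample, so no test was run; SDs are over autosomes or bins, and neighbouring bins are not independent. The text names the 10 domains with the most advanced bins, with up to 3 of their longest genes, the 5 bins with the largest smaller shift, 3 bins on each side of the threshold and genes of fixed lists. Some genes that this rule picks are not reported here. Families, the longest genes, medians of the gene lists, the Cdh1 locus, the genes just outside the set and the density without receptor genes were picked after seeing values. The bins and lists were chosen with earlier results of these data known. The alternatives were other cells (20 to 80% replicated, or paired), other minima of cells, median centring, percentile ranks, thresholds of 10 and 16 points, other gaps and gene bodies; leaving out receptor genes was chosen after seeing the data. The scripts used Python 3.11.15, numpy 2.4.6, pandas 2.3.3 and scipy 1.17.1 and were tested on simulated data. The simulation had more cells than the data and shifts above the threshold, so it did not check the rule at the counting error here.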

Additional observations from a re-analysis of the deposited data

How the results depend on the processing

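Of 68 values under alternatives, 59 stayed within the SD over autosomes or, for counts, within 1.5 times. The 59 include all values under minima of 20 cells and of 1 cell. Those could not move, because every used bin had at least 42 measured cells in each group and neither minimum changed which bins were used. The number of bins meeting the rule was 5578 with median centring, 5430 at a threshold of 10 points and 1401 at 16 points. Thresholds of 10 and 16 points gave mean 8-cell shifts of 16.4 and 20.4 points, and 10 points gave a mean morula shift of 17.6 points. With percentile ranks the bins meeting the rule had a mean 8-cell shift of 24.2 rank points, a 4-cell control mean of 0.845 rank points and 4.23 genes per Mb, and the set was mostly other bins (34.7% of it shared). The 4-cell mean was between -1.62 (median centring) and 4.30 (percentile ranks) over the alternatives. Minima of 20 cells and of 1 cell left the set as it was. No paired analysis was possible because each group is 1 sample and the labels tie no cell of one group to a cell of another; the cells paired above were matched on percent replicated, which is not a pairing by design. Precision is limited by the number of cells per group, and the read depth is unknown.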

Other observations

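MicroRNA genes were also scarce in the advanced bins. Of 904 autosomal hairpins in used bins, 11 (1.22%) lay in them, among them Mir9-2, of a microRNA family known from neural development, and Mir873a, Mir873b and Mir876. The advanced bins make up 6.17% of used bins.

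Within long domains single cells were often in 1 state throughout. In siCont cells at least 90% of a domain's measured advanced bins shared a state in 79.1% of cell and domain pairs at the 4-cell, 82.4% at the 8-cell and 87.4% at the morula stage. In siRif1 cells this was so in 77.5, 74.97 and 79.3% of pairs. A lower replicated share by itself leaves more domains wholly unreplicated, and the part of the share in this difference was not tested.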
